A study of Homo sapiens with 8 samples.

Results

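The genes described here encode the Fanconi anaemia and homologous recombination repair machinery, 45 genes named one by one and followed across the treatments of a telomerase inhibition study. Each gene was read from the probe set, of those annotated to it alone, with the highest mean signal. A probe set of their own was found for 40 of the 45 genes, among 17958 genes with one. FANCA, FANCD2, BRCA2, RBBP8 and ATRIP were not analysed here. The 40 members all passed the filter on low signals, which kept 12570 genes with a mean log2 signal of at least 4.37 over the 8 arrays. The lowest member mean was 5.44, for FANCF.

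The cells were HEL, a human erythroleukaemia line that carries an activating JAK2 mutation. All groups came from this single line and were harvested after 48 h. The control received the DMSO vehicle, the second group 0.5 µM LY2784544, a JAK2 kinase inhibitor, the third 20 µM GRN163L, an oligonucleotide that blocks the telomerase RNA template, and the fourth the combination of both agents, for which the labels do not repeat the doses. The study was run as 2 separate experiments with all 4 treatments in each, which gives 2 arrays per group. The comparisons ask whether transcripts of the repair machinery moved when GRN163L was given, alone or with JAK2 inhibition. No group received a control oligonucleotide. An effect of telomerase inhibition therefore cannot be told apart from other effects of the oligonucleotide.

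In the Fanconi pathway a core complex recognises a DNA crosslink and, with the conjugating enzyme UBE2T and the ligase FANCL, attaches ubiquitin to the FANCD2-FANCI pair, and the deubiquitinase USP1 removes it. Nucleases then open the lesion, the MRE11-RAD50-NBN complex and EXO1 or DNA2 resect the broken end, and BRCA1, PALB2 and BRCA2 promote the strand exchange that copies the intact sister, helped by mediator complexes that hold RAD51B, RAD51C, RAD51D, XRCC2 and XRCC3. ATM and ATR signal the damage through CHEK2 and CHEK1 and through H2AX, MDC1, RNF8, RNF168 and TP53BP1 at the chromatin. Uncapped telomeres are read by the same kinases. Much of this response works by phosphorylation and ubiquitin attachment, which an RNA array does not read, while many of the genes are transcribed most in S and G2 phase.

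Signals are log2 values, and a difference of 1 is a 2-fold change. The level of a probe set depends on its probes, so no gene's level is set against another gene's. Array medians over the tested genes lay between 7.23 and 7.51, lowest on the first experiment's combination and LY2784544 arrays. Over all probe sets the same arrays had the highest medians, 5.25 and 5.21, against 5.07 and 5.12 in control. The part of this difference between arrays in the members' values was not tested. Erythroid and megakaryocyte markers (8 of 13 measured) had levels of 8.70 to 12.94 on these arrays. Of the lymphocyte and monocyte markers (7 of 8 measured), CD3D, CD3E, MS4A1, CD14 and CD8A stood at 3.24 to 4.97 and LYZ at 10.26 to 10.69. NCAM1 was at 6.2 and 6.17 in control and 4.62 to 5.33 on the 6 treated arrays, and it fell with LY2784544 (-1.475; limma adjusted p = 0.00886) and with the combination (-1.05; limma adjusted p = 0.0213). Leaving out either control array ended both calls, and leaving out either GRN163L array or the first combination array ended that for the combination. Of the fibroblast and epithelial markers, COL1A1, COL1A2, COL3A1, EPCAM, KRT19 and CDH1 stood at 3.44 to 5.5, KRT8 at 6.05 to 7.42 and KRT18 at 7.87 to 9.25. The part of these markers in the members' values was not tested. These are bulk RNA samples, in which fewer cells of a type and less RNA per cell cannot be told apart.

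No member passed the test after 48 h of GRN163L. With limma and a Benjamini-Hochberg adjusted p below 0.05 over all genes, 0 of 40 members and 0.0% of the 12570 genes were called against control. At an unadjusted p below 0.05 there were 0 members, against 4.73% of all genes. The mean was lower for 21 members (48.9% of all genes) and higher for 19, with a median difference of -0.015 (all genes 0.005). In the first experiment 26 members were lower (48.0% of all genes; median -0.05) and in the second 15 (49.4%; median 0.08). Both GRN163L arrays lay below both control arrays for 7 members (16.4% of all genes) and above them for 6 (17.5%). For 37 of the 40 members the 95% interval of the difference lay within 1 log2 unit of 0, as it did for 91.6% of all genes. The exceptions were UBE2T, BLM and DNA2. All unadjusted p-values and intervals given here for treatments come from the fit that leaves out the experiment. Their spread therefore includes the difference between experiments, which held 36.9% of the members' variation and 17.7% of that of all genes.

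**Figure D1:**
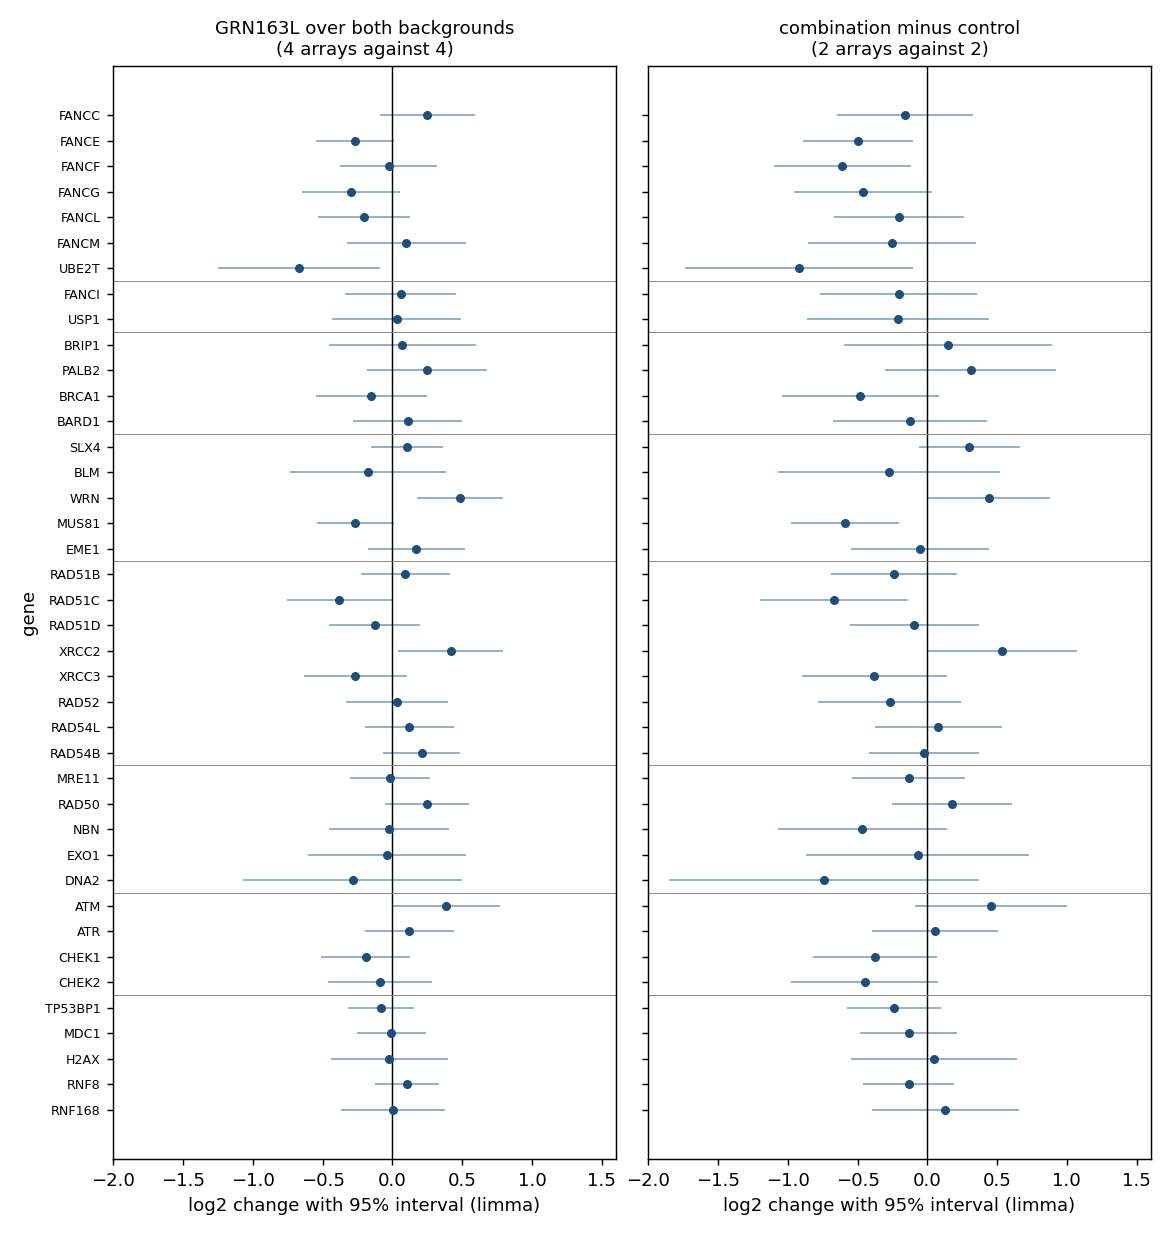
Difference in log2 signal for each of the 40 members (points) with its 95% interval from limma (lines). One panel shows GRN163L over both backgrounds (4 arrays against 4) and the other the combination minus control (2 against 2). In the first panel 38 of 40 intervals lie within 1 log2 unit of 0, and UBE2T and WRN lie farthest out on either side.

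GRN163L was also measured in cells given LY2784544, so its effect can be averaged over both backgrounds, 4 arrays against 4. This average takes the doses in the combination to equal those of the agents alone. Of all genes 0.382% were called, and again 0 of 40 members. An unadjusted p below 0.05 was reached by 5 members, RAD51C, XRCC2, WRN, ATM and UBE2T (15.0% of all genes). The members were evenly divided, 20 higher and 20 lower (51.8% of all genes), and their median was -0.0025. The 95% interval lay within 1 log2 unit of 0 for 38 members (95.9% of all genes), all but UBE2T and DNA2. With the experiment as a block, which is described below, 0 members were called for GRN163L alone (0.0% of all genes) or over both backgrounds (2.24%). In each of the 4 matched pairs, 5 members were higher with GRN163L (XRCC2, WRN, ATM, ATR and EME1; 13.0% of all genes) and 7 lower (FANCG, RAD51C, XRCC3, CHEK1, TP53BP1, MUS81 and UBE2T; 15.5%). These shares lie close to those of all genes.

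The combination gave 0 called members of 40 against control in the fit without the experiment, where 3.47% of all genes were called, 6 members at an unadjusted p below 0.05 and 23.1% of all genes. The labels tie each array to its experiment, and with the experiment as a block limma called 3 members and 11.0% of all genes. UBE2T and RAD51C fell and XRCC2 rose. The share of members called, 7.5%, was not far from that of all genes. By their means 29 members were lower (57.1% of all genes) and 11 higher, with a median of -0.18 (all genes -0.065). Of the genes kept by a filter at the 50th percentile of mean signal, as most members were, 63.2% were lower (median -0.12). Scaling every array to the same median moved the median of all genes in this comparison to 0.11 and that of the members to -0.0075, and quantile scaling gave members -0.05. In the first experiment 32 of 40 members were lower (58.3% of all genes; median -0.28) and 17 in the second (53.4%; median 0.075). Both combination arrays lay below both control arrays for 14 members (32.2% of all genes) and above them for 4, SLX4, XRCC2, WRN and ATM (21.5%). The 95% interval lay within 1 log2 unit of 0 for 32 members (78.2% of all genes). Neither scaling turned the directions given below for UBE2T, RAD51C and XRCC2.

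**Figure D2:**
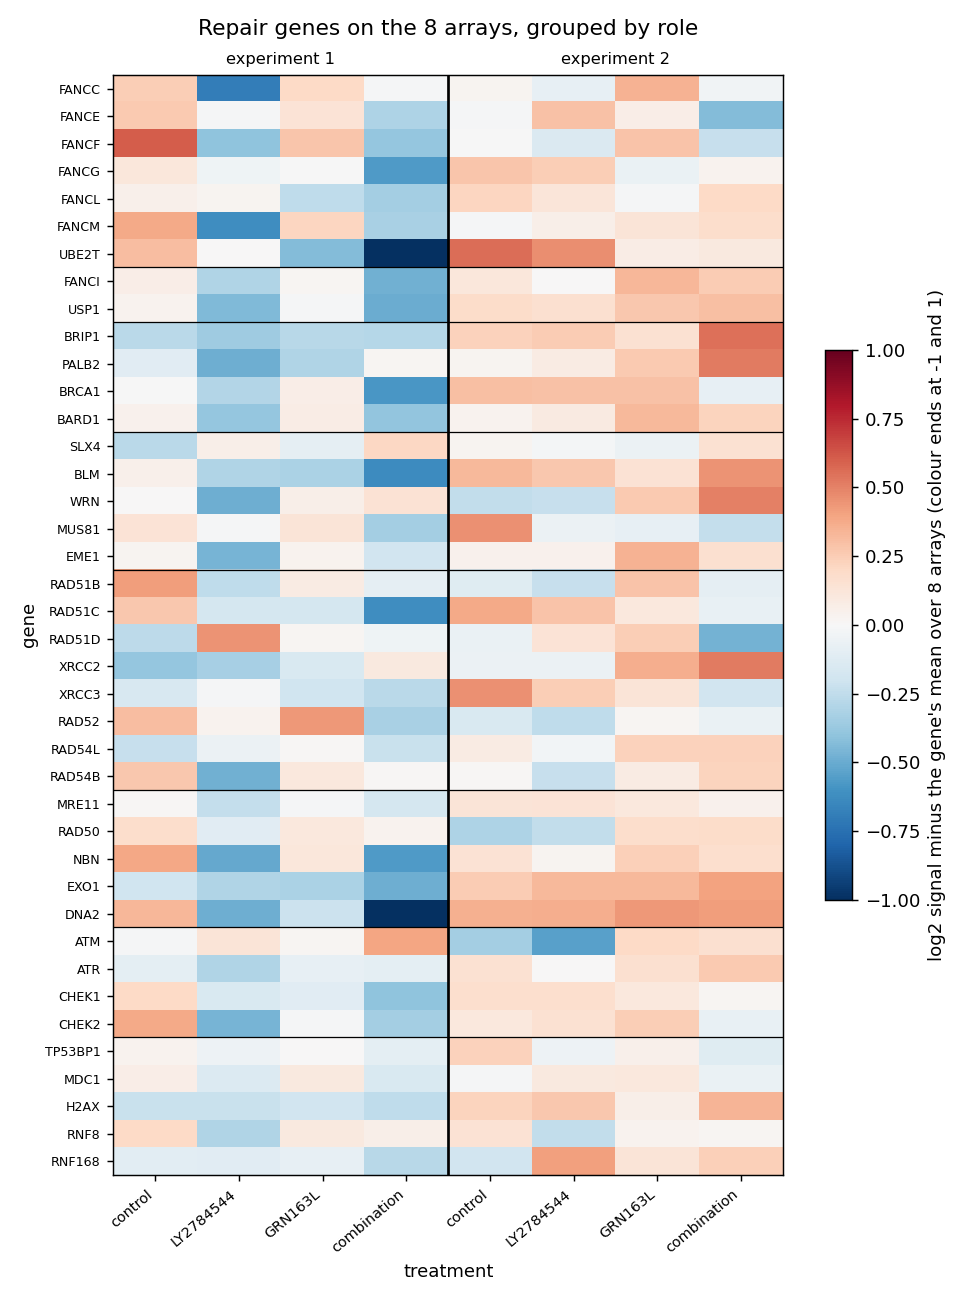
Heat map of the 40 members (rows, by role) on the 8 arrays (columns, by experiment), coloured by the log2 signal minus the gene's mean over the 8 arrays. The colours end at 1 log2 unit on either side. The first experiment's LY2784544 and combination columns hold the lowest value of 13 and 19 members.

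Within the core complex and its conjugating enzyme, 7 of 8 members were measured. Each of the 7 had a lower mean under both agents than in control, and their median difference was -0.46. Scaling to the same median turned FANCC to 0.015 and left a median of -0.285 over the 7. UBE2T, the conjugating enzyme that hands ubiquitin to FANCD2 and FANCI, read 9.39 and 9.64 in control in the first and the second experiment, 9.09 and 9.55 under LY2784544, 8.65 and 9.16 under GRN163L, and 8.01 and 9.18 under both agents. Both GRN163L arrays and both combination arrays lay below both control arrays. Its mean was 9.52 ± 0.18 (SD, n = 2) in control, 8.91 ± 0.36 under GRN163L and 8.60 ± 0.83 under both agents. Against control the combination differed by -0.92 (SE 0.36; limma adjusted p = 0.174), by -1.38 in the first experiment and -0.46 in the second. With the experiment as a block UBE2T fell (limma adjusted p = 0.035), and without a block it was called when the second combination array was left out (-1.505; limma adjusted p = 0.0291). Without the first combination array the difference was -0.335 and not called. GRN163L alone differed by -0.61 (SE 0.36; 95% interval -1.43 to 0.21; limma adjusted p = 0.995). Over both backgrounds it differed by -0.67 (SE 0.25; limma adjusted p = 0.27, and 0.0621 with the block), lower in 4 of 4 pairs, and by -0.375 without the first combination array.

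FANCE, a core complex subunit that binds FANCD2, read 8.5 and 8.23 in control, 8.23 and 8.53 under LY2784544, 8.38 and 8.31 under GRN163L, and 7.93 and 7.81 under both agents. The combination arrays were the lowest of the 8, and the other 3 groups overlapped. The combination minus control was -0.495 (SE 0.17; limma adjusted p = 0.138, and 0.0918 with the block). FANCF, which bridges parts of the core complex and was picked for its values, read 6.05 and 5.44 in control, 5.72 and 5.73 under GRN163L, 5.04 and 5.30 under LY2784544, and 5.06 and 5.21 under both agents. Each array with LY2784544 was below each without it. LY2784544 over both backgrounds differed by -0.58 (SE 0.15; limma adjusted p = 0.0686), and with the block FANCF fell (limma adjusted p = 0.0461). FANCF had the lowest mean of the members, and without the second control array the fit without a block also called it (-0.735, limma adjusted p = 0.0363).

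Of the FANCD2-FANCI pair and USP1, 2 of 3 were measured. FANCI, the partner of FANCD2, read 9.81 and 9.85 in control, 9.44 and 9.74 under LY2784544, 9.76 and 10.07 under GRN163L, and 9.26 and 9.99 under both agents. The control and GRN163L arrays overlapped. GRN163L over both backgrounds differed by 0.06 (SE 0.17; limma adjusted p = 0.915) and the combination from control by -0.205 (SE 0.25; limma adjusted p = 0.651). The latter was -0.55 in the first experiment and 0.14 in the second, so it changed sign with the experiment. For USP1, picked after its values were seen, the combination differed from control by -0.53 and 0.11 in the first and the second experiment.

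The promoters of the 4 members called in a fit with the block are shown so that they can be compared with the transcription factor motifs searched for below. Each is the 250 bases before the RefSeq transcription start (GRCh38.p14; the first listed start where a gene has several), 5′ to 3′ on the gene's strand, and capitals mark CCAAT boxes (CCAAT, or ATTGG on the other strand) and CHR elements (TTTGAA, or TTCAAA on the other strand). UBE2T and FANCF each hold 2 CCAAT boxes, UBE2T also 1 CHR element, and neither motif is in the RAD51C and XRCC2 windows.
UBE2T promoter, chr1:202341937-202342186, minus strand: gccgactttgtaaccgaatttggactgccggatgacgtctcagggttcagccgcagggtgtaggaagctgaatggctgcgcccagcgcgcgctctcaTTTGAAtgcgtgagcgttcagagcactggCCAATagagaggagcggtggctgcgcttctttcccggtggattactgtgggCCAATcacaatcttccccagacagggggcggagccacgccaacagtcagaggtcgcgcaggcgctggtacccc
FANCF promoter, chr11:22625824-22626073, minus strand: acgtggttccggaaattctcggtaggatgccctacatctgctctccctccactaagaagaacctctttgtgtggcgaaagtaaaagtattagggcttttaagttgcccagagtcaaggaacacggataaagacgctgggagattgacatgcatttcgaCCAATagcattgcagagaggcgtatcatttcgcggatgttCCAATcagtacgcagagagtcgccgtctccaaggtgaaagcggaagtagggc
RAD51C promoter, chr17:58692323-58692572, plus strand: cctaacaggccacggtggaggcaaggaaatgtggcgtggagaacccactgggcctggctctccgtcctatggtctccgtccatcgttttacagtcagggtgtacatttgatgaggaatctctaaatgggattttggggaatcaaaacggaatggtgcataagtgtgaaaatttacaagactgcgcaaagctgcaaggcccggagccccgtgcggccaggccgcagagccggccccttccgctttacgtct
XRCC2 promoter, chr7:152676142-152676391, minus strand: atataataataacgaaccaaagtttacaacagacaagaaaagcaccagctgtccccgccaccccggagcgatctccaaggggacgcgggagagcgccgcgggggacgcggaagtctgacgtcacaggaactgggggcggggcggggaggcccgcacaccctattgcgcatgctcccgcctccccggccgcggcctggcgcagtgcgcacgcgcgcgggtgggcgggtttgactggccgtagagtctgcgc

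The recombination mediators are RAD51B, RAD51C, RAD51D, XRCC2 and XRCC3 with RAD52, RAD54L and RAD54B, and all 8 were measured. Both called members among them moved in opposite directions. RAD51C, a subunit of 2 distinct mediator complexes, read 8.73 and 8.84 in control, 8.29 and 8.75 under LY2784544, 8.29 and 8.57 under GRN163L, and 7.84 and 8.39 under both agents. Both combination arrays lay below both control arrays. The difference was -0.67 (SE 0.23; limma adjusted p = 0.136), -0.89 and -0.45 in the first and the second experiment, and with the block RAD51C fell (limma adjusted p = 0.0345). Without a block it ranged from -0.945 to -0.395 when the second or the first combination array was left out. Over both backgrounds GRN163L differed by -0.38 (limma adjusted p = 0.329).

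XRCC2, a subunit of a mediator complex, read 8.04 and 8.37 in control, 8.10 and 8.37 under LY2784544, 8.28 and 8.79 under GRN163L, and 8.53 and 8.95 under both agents. Both combination arrays were above both control arrays, by 0.49 and 0.58 in the first and the second experiment. The difference was 0.535 (SE 0.24; limma adjusted p = 0.217), and with the block XRCC2 rose (limma adjusted p = 0.0464). Without the second combination array the difference was 0.325. Over both backgrounds GRN163L differed by 0.42 (SE 0.17; limma adjusted p = 0.288, and 0.0677 with the block), higher in 4 of 4 pairs. LY2784544 alone differed from control by 0.03. RAD51D, picked for its values, read 6.56 and 6.76 in control, 7.27 and 6.96 under LY2784544, 6.84 and 7.07 under GRN163L, and 6.78 and 6.35 under both agents. Either agent alone gave values above control and the combination overlapped control. Its interaction was -0.845 (SE 0.29; limma unadjusted p = 0.0171, adjusted p = 0.999). It was the only member under an unadjusted p of 0.05 there, and of all genes 3.69% were, while 0.0% were called.

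**Figure D3:**
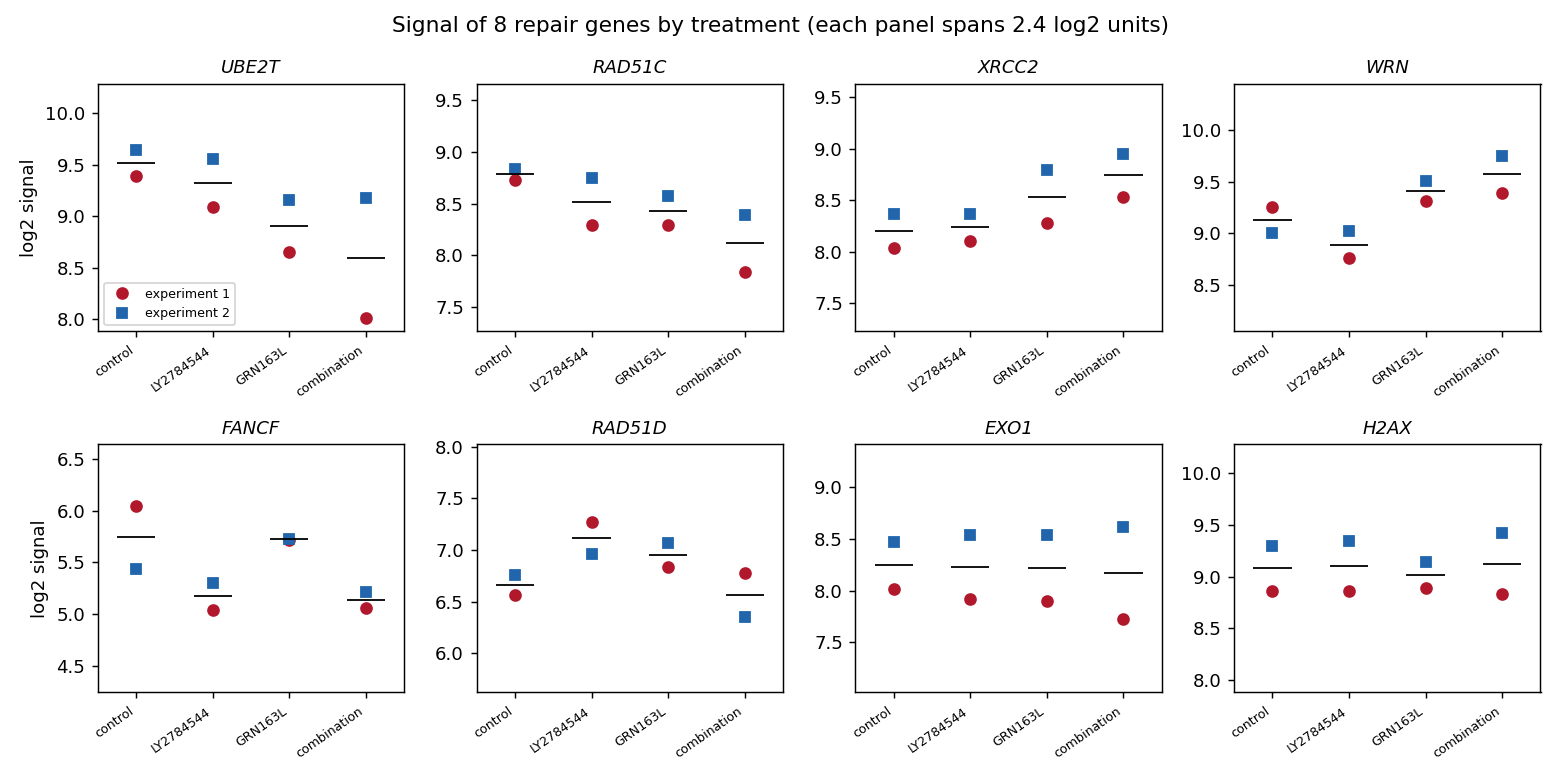
Log2 signal of UBE2T, RAD51C, XRCC2, WRN, FANCF, RAD51D, EXO1 and H2AX on each array, 1 panel a gene, by treatment group. Points are arrays, marked by experiment, and lines are group means. UBE2T and RAD51C are lowest on the first experiment's combination array, XRCC2 is highest on the second experiment's, and for EXO1 and H2AX the second experiment lies above the first in every group.

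BRCA1, PALB2, BRIP1 and BARD1 were measured, 4 of 5 in the BRCA complexes. BRCA1, a ligase that promotes end resection and recombination, read 8.09 and 8.39 in control, 7.80 and 8.38 under LY2784544, 8.16 and 8.38 under GRN163L, and 7.51 and 8.01 under both agents. Both combination arrays were below both control arrays, by 0.58 and 0.38. PALB2, which links BRCA1 to BRCA2, read 7.93 and 8.07 in control, 7.55 and 8.12 under LY2784544, 7.74 and 8.30 under GRN163L, and 8.06 and 8.56 under both agents. The control and combination arrays overlapped. Neither was called against control: BRCA1 differed by -0.48 (SE 0.25; limma adjusted p = 0.282) and PALB2 by 0.31 (SE 0.27; limma adjusted p = 0.521).

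All 5 helicases and junction nucleases were measured. WRN, a helicase that unwinds recombination intermediates and telomeric structures and is mutated in Werner syndrome, read 9.25 and 9.0 in control, 8.76 and 9.02 under LY2784544, 9.31 and 9.51 under GRN163L, and 9.39 and 9.75 under both agents. Every array with GRN163L exceeded every array without it. Over both backgrounds the difference was 0.48 (SE 0.14; 95% interval 0.17 to 0.79), the smallest unadjusted p of the members there at 0.00663. The adjusted p of limma was 0.16, and 0.0799 with the block, so WRN was not called. MUS81, a nuclease that cuts branched junctions, read 8.49 and 8.81 in control, 8.34 and 8.29 under LY2784544, 8.48 and 8.27 under GRN163L, and 8.01 and 8.11 under both agents. Each combination array was below every other array. The combination minus control was -0.59 (SE 0.17; limma adjusted p = 0.0898, and 0.0546 with the block).

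Of the end resection genes 5 of 6 were measured. NBN, the subunit that brings ATM to the break, read 8.66 and 8.42 in control, 7.76 and 8.30 under LY2784544, 8.39 and 8.51 under GRN163L, and 7.71 and 8.44 under both agents. The lowest values were those of the first experiment's LY2784544 and combination arrays, and the combination differed from control by -0.95 and 0.02 in the first and the second experiment. RAD50, the coiled-coil ATPase of the complex, read 8.98 and 8.5 in control, 8.69 and 8.56 under LY2784544, 8.91 and 8.98 under GRN163L, and 8.84 and 8.99 under both agents. Each treated group overlapped control. DNA2, a resection nuclease picked for its values, read 7.59 and 7.61 in control and 6.05 and 7.67 with the combination, a difference of -0.74 (SE 0.49; limma adjusted p = 0.392) that was -1.54 in the first experiment and 0.06 in the second.

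Of the checkpoint kinases and ATRIP, 4 of 5 were measured. ATM, the kinase that answers double-strand breaks, read 8.38 and 8.05 in control, 8.52 and 7.85 under LY2784544, 8.41 and 8.59 under GRN163L, and 8.79 and 8.55 under both agents. Both combination arrays exceeded both control arrays, and GRN163L over both backgrounds differed by 0.385 (limma adjusted p = 0.332), higher in 4 of 4 pairs. CHEK2, the kinase below ATM, read 6.79 and 6.52 in control, 5.95 and 6.56 under LY2784544, 6.40 and 6.66 under GRN163L, and 6.07 and 6.34 under both agents. The combination minus control was -0.45 (SE 0.23; limma adjusted p = 0.281). CHEK1, the kinase below ATR, picked after its values were seen, differed by -0.375 (limma adjusted p = 0.289).

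The chromatin mediators, which gather at the break around modified H2AX, were all 5 measured. TP53BP1, which limits resection, read 7.61 and 7.81 in control, 7.53 and 7.53 under LY2784544, 7.58 and 7.63 under GRN163L, and 7.48 and 7.46 under both agents. Both combination arrays were below both control arrays, by 0.24 on average (limma adjusted p = 0.366). RNF8, a ubiquitin ligase that acts before RNF168, read 7.14 and 7.09 in control, 6.64 and 6.70 under LY2784544, 7.04 and 6.98 under GRN163L, and 7.0 and 6.96 under both agents. The LY2784544 arrays were the lowest of the 8, and the difference from control was -0.445 (SE 0.14; limma adjusted p = 0.212). H2AX, the histone variant phosphorylated at breaks, was picked after its values were seen and its transcript differed by -0.065 with GRN163L (95% interval -0.66 to 0.53; limma adjusted p = 0.995).

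LY2784544 gave 0 called members of 40, with 4 at an unadjusted p below 0.05, FANCC, FANCF, RAD54B and RNF8 (all genes 1.27% called and 13.2% unadjusted). The mean of 33 members was lower, 56.0% of all genes, with a median of -0.18 against -0.04 for all genes. Of the genes kept by a filter at the 50th percentile of mean signal, 60.5% were lower (median -0.07), and 67.2% over both backgrounds. In the first experiment 33 were lower (55.1% of all genes; median -0.29) and in the second 22 (54.3%; median -0.03). Scaling to the same median moved the median of all genes to 0.0625 and left the members at -0.075. Both LY2784544 arrays lay below both control arrays for 9 members (25.2% of all genes) and above them for 1, RAD51D (17.0%). The 95% interval lay within 1 log2 unit of 0 for 34 members (84.4% of all genes). With the block 0 members were called (2.74%). Over both backgrounds 31 members had a lower mean (59.7% of all genes), 6 an unadjusted p below 0.05 (22.6%), and 0 of 40 were called (4.46%) in the fit without the block and 1, FANCF, with it (10.4%). In all 4 matched pairs 11 members were lower (24.0%) and 0 higher (11.4%). The combination minus LY2784544 gave 0 called members (0.31% of all genes; 1.6% with the block), with FANCE, RAD51D, RAD54B and WRN, 4 members, at a limma unadjusted p below 0.05 (13.5% of all genes). The combination minus GRN163L gave 0 (0.541%; 1.69% with the block), with FANCE and FANCF, 2 members, at an unadjusted p below 0.05 (14.4%). With the block both counts of members stayed at 0.

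Many members read higher in the second experiment, and their medians lay farthest apart on the arrays with LY2784544. The members' median deviation from the gene's mean was 0.05 and 0.11 in control in the first and the second experiment. It was 0.005 and 0.16 with GRN163L, -0.27 and 0.09 with LY2784544, and -0.28 and 0.16 with both agents. The second experiment exceeded the first in all 4 groups for 18 of 40 members, 15.7% of all genes, and was below it in all 4 for 0 (10.8%). By the mean 32 members were higher in the second and 8 lower (47.4% of all genes were lower). The members' median was 0.25 against 0.0125 for all genes, and 0.19 after scaling to the same median. For the genes kept by a filter at the 50th percentile of mean signal the median was 0.0475. None passed the test with limma (0.247% of all genes did), and 18 had an unadjusted p below 0.05 (19.9%). Among the 18 with higher values were EXO1, BRIP1, H2AX, BLM and UBE2T, picked for their values. EXO1, a resection exonuclease, read 8.02, 7.92, 7.90 and 7.73 in the first experiment in control, LY2784544, GRN163L and combination, and 8.47, 8.54, 8.54 and 8.62 in the second. The second minus the first was 0.65 (SE 0.11; 95% interval 0.40 to 0.90; limma adjusted p = 0.0671). With array weights 12 of 40 members were called, against 10.5% of all genes, and all 12 were higher in the second experiment.

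Treatments, the experiment and their interactions share out each gene's variation over the 8 arrays completely. Summed over the 40 members the experiment held 36.9% of it, against 17.7% over all genes, LY2784544 20.0% (34.5%) and GRN163L 17.3% (20.1%). Such sums weigh strongly varying genes most. By the median share per gene LY2784544 held 20.9% in the members and 19.8% in all genes. The median shares were 11.1% (11.7%) for GRN163L and 33.8% (12.1%) for the experiment. The experiment was the largest part in 18 members (21.7% of all genes), LY2784544 in 11 (33.8%) and GRN163L in 8 (21.9%). The first experiment's combination array was the lowest of the 8 for 19 members (25.5% of all genes) and its LY2784544 array for 13 (16.2%). These descriptions carry no test.

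**Figure D4:**
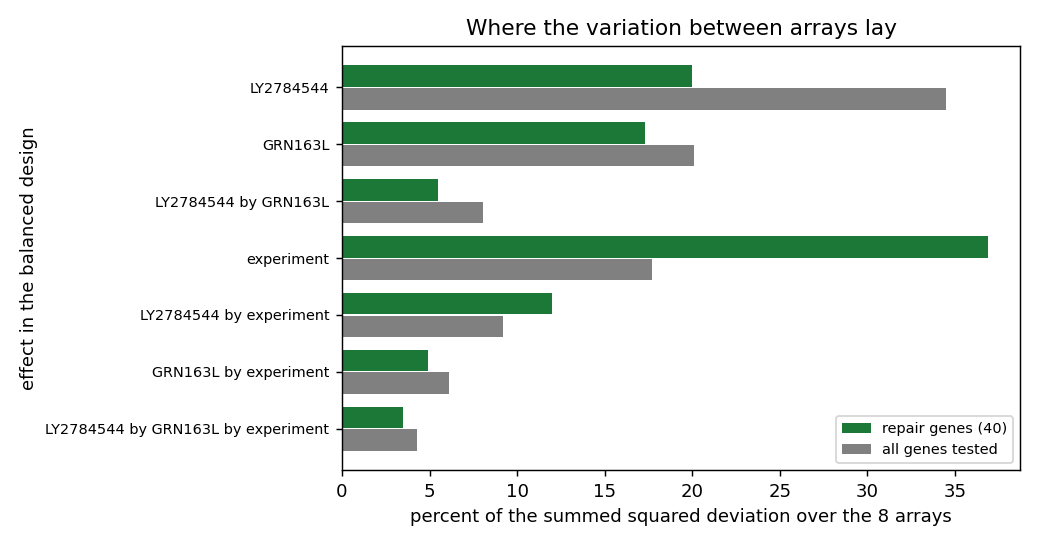
Bars, from 0, show the percentage of summed variation over the 8 arrays assigned to each treatment, the experiment and their interactions, for the 40 members and for all 12570 genes. The experiment bar is 36.9% in the members and 17.7% in all genes, and the LY2784544 bar 20.0% and 34.5%.

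Genes of the G2 and mitosis list were low on the same arrays. The 20 tested G2 and mitosis genes (of 22) had a median difference with LY2784544 of -1.02 in the first experiment and 0.035 in the second, and with the combination of -1.125 and -0.045. With limma 0 of them were called in either comparison (1.27% and 3.47% of all genes). An unadjusted p below 0.05 was reached by 2 and 6 of them (13.2% and 23.1% of all genes). By the mean over the 4 groups all 20 were higher in the second experiment (median 0.415), while 47.4% of all genes were lower. In control, however, their median deviation from the gene's mean was 0.39 in the first experiment and 0.22 in the second. It was 0.12 and 0.18 with GRN163L, -0.71 and 0.26 with LY2784544, and -0.72 and 0.25 with both agents. The 30 tested DNA replication genes (of 31) had -0.165 and -0.025 with LY2784544, and -0.505 and -0.225 with the combination. By the mean over the 4 groups 29 of them were higher in the second experiment (median 0.41) and 1 lower (47.4% of all genes). Their part in the members' difference was not tested.

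**Figure D5:**
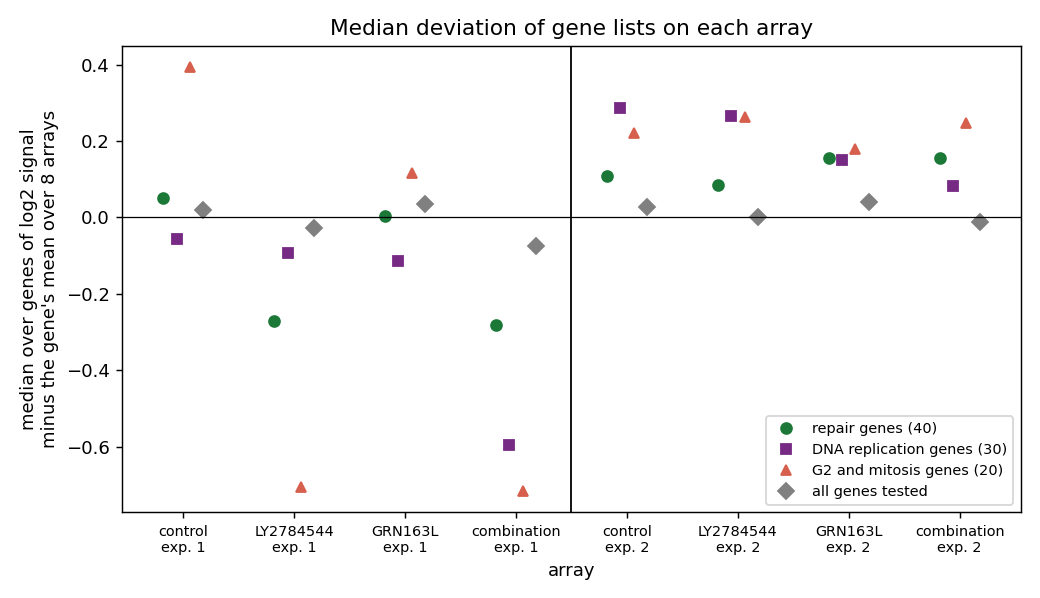
Median over each gene list of the log2 signal minus the gene's mean over the 8 arrays, shown for every array. The members stand at -0.27 and -0.28 on the first experiment's LY2784544 and combination arrays, and the G2 and mitosis list is lowest on the same 2 arrays at -0.71 and -0.72.

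Of 60 other genes of the pathway 53 were tested, which means that they passed the filter. In the second experiment 44 of them were higher than in the first and 9 lower (47.4% of all genes), with a median of 0.205. With the combination 14 were higher and 39 lower (57.1% of all genes), with a median of -0.175, which scaling to the same median brought to 0. Of all genes 3.47% were called with the combination. CENPX and MAD2L2, a FANCM partner and a translesion synthesis factor, fell (-0.965 and -0.85; limma adjusted p = 0.0412 and 0.0443). After scaling to the same median the differences were -0.79 and -0.675, and neither was called (limma adjusted p = 0.0859 and 0.0706). Leaving out any control, GRN163L or combination array ended the call for CENPX, and any control or GRN163L array or the first combination array that for MAD2L2. With GRN163L over both backgrounds 17 were higher and 36 lower (51.8% of all genes), with a median of -0.085. Of these 0 were called by limma (0.382% of all genes) and 7 had an unadjusted p below 0.05 (15.0%). Of the 14 end joining genes tested (of 15), LIG4, the ligase of that pathway, rose with the combination (0.875; limma adjusted p = 0.0442). Of 16 telomere and telomerase genes tested (of 17), ACD, a shelterin protein, fell with the combination (-0.765; limma adjusted p = 0.0447, and -0.59, limma adjusted p = 0.0854, after scaling to the same median). Leaving out any control, GRN163L or combination array ended the call for either gene. The 20 tested p53 targets (of 26) divided 10 higher and 10 lower (48.9% of all genes) with GRN163L alone (median 0.005). Of these 0 were called by limma (0.0% of all genes) and 0 had an unadjusted p below 0.05 (4.73%). The combination gave 7 higher and 13 lower (57.1% of all genes), with a median of -0.0625, and 0.1125 after scaling to the same median. Of these 0 were called (3.47% of all genes) and 2 had an unadjusted p below 0.05 (23.1%). CDKN1A, the p53-induced cell cycle inhibitor, read 5.12 and 6.08 in control and 5.17 and 5.32 with GRN163L (-0.355; limma adjusted p = 0.995), and MDM2, which degrades p53, 9.82 and 10.20 against 9.95 and 10.02 (-0.025; limma adjusted p = 0.995).

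A RefSeq promoter window was matched for 35 of the 40 members. FANCI, RAD54B, WRN, NBN and DNA2 had none. The CCAAT box was in 18 of 35 (51.4%) against 34.8% of 9969 windows of tested genes, the CHR element in 6 (17.1%; 8.46%), and the ETS core (CCGGAAG) in 12 (34.3%; 15.2%), each counted on both strands. E2F-type sites (TTTCCCGC, TTTGGCGC, TTTCGCGC or TTTGCCGC) were in 1, FANCC (2.86%; 4.43%), and the STAT-type GAS element (TTCNNNGAA) in 1, FANCM (2.86%; 5.64%). A GAS element can contain a CHR element, but no member window held both. BRIP1 and H2AX, of the group higher in the second experiment in all 4 groups, show how CCAAT boxes can cluster, with 3 and 4 of them and 1 CHR element each.
BRIP1 promoter, chr17:61863529-61863778, minus strand: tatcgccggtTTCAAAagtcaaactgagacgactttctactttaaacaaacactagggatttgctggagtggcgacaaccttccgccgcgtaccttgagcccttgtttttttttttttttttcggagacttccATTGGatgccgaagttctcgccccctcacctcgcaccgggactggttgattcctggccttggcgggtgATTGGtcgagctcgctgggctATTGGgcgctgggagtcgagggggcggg
H2AX promoter, chr11:119095466-119095715, minus strand: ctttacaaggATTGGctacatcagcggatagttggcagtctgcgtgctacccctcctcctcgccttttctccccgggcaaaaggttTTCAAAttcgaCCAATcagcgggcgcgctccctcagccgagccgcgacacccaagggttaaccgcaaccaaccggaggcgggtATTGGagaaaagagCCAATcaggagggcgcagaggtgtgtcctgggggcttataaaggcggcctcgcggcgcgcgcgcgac

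The CCAAT box was in 9 of the 16 windows of members higher in the second experiment in all 4 groups and in 9 of the 19 other windows, so similar shares of either group held it. Another gene started on the opposite strand within 1000 bases for 13 of 35 members (37.1%; 24.7% of tested genes with a window). For PALB2 it is DCTN5 at 156 bases, for ATM NPAT at 429 and for MRE11 ANKRD49 at 140. These are matches of letters and positions, not evidence of binding.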

How the data were processed

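The authors deposited log2 signals, 1 per probe set and array, made with RMA in Affymetrix Expression Console per the submitters' processing notes. Its version, the build, and whether RMA ran once over all arrays, are not stated in the sources used here. A log base of 2 was inferred from the range of the values. RMA narrows differences at low signal and gives the arrays nearly equal distributions, which shrinks a shift of most genes. Of 33297 probe sets, 19181 name 1 gene, 2055 several and 12061 none in GEO's platform annotation, and 19143 of the 1-gene probe sets have a gene number found in RefSeq's table. The highest-mean 1-gene probe set stood for its gene. MDC1 has 2 probe sets with identical values. No array copied another, since at most 1.90% of values were equal on 2 arrays.

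Genes under the 30th percentile of mean signal (4.37) were left out. A model with 4 group means was fitted to 8 arrays with limma 3.58.1 in R 4.3.3 (residual degrees of freedom 4, prior 4.65), adjusted by Benjamini-Hochberg over 12570 genes. The same fit was run on simulated arrays without a difference between experiments, so that run cannot check the fit with the block. The experiment contrast added the experiment as a term. The number of arrays limits precision, and the p-values reflect only the spread among these samples, which may be partly technical. Per the labels' protocols each replicate number marks a shared experiment, so numbers pair the arrays. Deviations of same-numbered arrays correlated with r = 0.103 to 0.674 between groups. Alternatives were the experiment as a block, other filters, scaling to the same median, quantile scaling, the mean of probe sets, a trend, array weights and leaving out each array. Per-array values were printed, by rule, for each role's members with the smallest p for GRN163L over both backgrounds and for combination minus control, and for members called. From each other list up to 4 genes with the smallest p were named, plus CDKN1A and MDM2. The members and lists were chosen with earlier results of these data known. Intervals are 95%.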

Additional observations from a re-analysis of the deposited data

How the results depend on the processing

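With 2 arrays a group, 1 array can decide a value. The number of members called against control by the combination was 3 with the replicate block (UBE2T, RAD51C and XRCC2) against 0 without it, and 1 with the block for LY2784544 over both backgrounds (FANCF). The block changed no other count of called members. The experiment comparison called 1 member with a mean-variance trend, a setting that called 48 genes higher and 16 lower of 12570. With array weights it called 12 members (10.5% of all genes), against 0 (0.247%) with neither. Leaving out each array gave 0 to 1 called members for the combination against control (UBE2T, without the second combination array, -1.505, limma adjusted p = 0.0291) and 0 to 1 for LY2784544 over both backgrounds, and 0 in the other comparisons. The members' median then ranged from -0.3375 to 0.015 for LY2784544, from -0.0775 to 0.07 for GRN163L and from -0.335 to 0.03 for the combination. Without the first experiment's LY2784544 and combination arrays, a setting chosen after seeing the data, the LY2784544 median was 0.015. FANCI changed sign for GRN163L over both backgrounds when single arrays were left out (-0.015, -0.0175 and -0.1225, in a range of -0.1225 to 0.2425), and for the combination without its first array or under the added setting (0.16, in a range of -0.57 to 0.16). Leaving out single arrays moved these, among others, by over 1.5 times: for GRN163L over both backgrounds UBE2T (-0.96 to -0.375), RAD51C (-0.5175 to -0.2425), PALB2 (0.105 to 0.39), RAD50 (0.1275 to 0.3675) and ATM (0.2175 to 0.5525), and for the combination minus control UBE2T (-1.505 to -0.335), RAD51C (-0.945 to -0.395), BRCA1 (-0.73 to -0.23), NBN (-0.83 to -0.1) and XRCC2 (0.325 to 0.745). The causes were not tested. A filter at the 50th percentile left 37 members.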
